A study of Mus musculus with 12 samples.

Results

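Mouse embryonic stem cells given L-proline and the synthetic glucocorticoid budesonide together were compared with untreated cells. The comparison was chosen by the sample labels alone: 6 of the 12 samples of the series, 3 of the combination and 3 controls. All samples were E14 cells, a widely used mouse embryonic stem cell line, grown as a flat culture. The 4 groups of 3 samples were untreated cells (control, for which the labels give no time), and cells treated for 72 h with proline, with budesonide, or with proline and budesonide together (the combination). The labels give no doses and do not say that the samples of a group came from separate cultures, so the p-values measure the spread between these samples, which may be technical. A single line stands for all embryonic stem cells here. The question taken from the design was which of the gene programmes that proline moved were back at the untreated level when budesonide was present, and which stayed different or differed only with the combination.

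Naive embryonic stem cells resemble the epiblast before implantation and are held by a network of transcription factors that includes Nanog, Esrrb, Klf and Tfcp2l1 proteins. Added L-proline is known to push such cells towards a later, primed and more mesenchymal state, and in cells short of proline the amino acid response led by the transcription factor Atf4 is active. Budesonide binds the glucocorticoid receptor, a nuclear receptor that enters the nucleus and changes transcription from its target genes.

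Levels are given in CPM (counts per 1 M counts of the library, with its total adjusted by TMM). The libraries hold the 3′ ends of polyadenylated RNA, and counts were not divided by transcript length. Changes are log2 values for the combination minus control unless another pair of groups is named, with ± the standard error (SE). After a CPM mean, ± is the SD of n = 3 samples. Adjusted p-values are from edgeR's quasi-likelihood F test over the 13852 genes that passed a low-count filter, and the verbs rose and fell are kept for adjusted p-values below 0.05. In bulk samples, fewer cells of a type and less RNA per cell cannot be told apart.

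The control libraries held 5.30 to 6.73 M counts and those of the combination 6.58 to 7.52 M. Reads of the ribosomal RNA gene Rn18s made up 2.21 to 2.77% of control and 3.11 to 5.90% of combination libraries, and small nucleolar RNAs 0.0296 to 0.0346% and 0.0219 to 0.0260%, with no overlap in either. Control 3 had no count for 6.57% of the tested genes, where the other libraries of the 2 groups lacked 1.39 to 4.80%. Without control 3, 686 genes differed in place of the 993 reported next, 603 of them shared. Without control 3 and sample 3 of budesonide (8.43%) 912 genes differed, 739 of them shared. The 10 embryonic stem cell markers summed to 3907 to 4613 CPM in control and 3925 to 4187 CPM with the combination, and 2 of the 10 fell. Markers of feeder fibroblasts summed to 10.4 to 20.8 CPM in control and 3.69 to 8.04 CPM with the combination, with Postn, Lum and Prrx1 at 0 in both groups. Those of extraembryonic endoderm summed to 4.78 to 11.8 CPM and 15.1 to 22.5 CPM, with none of the 6 called by edgeR. Those of trophoblast summed to 18.8 to 31.9 CPM and 25.5 to 29.2 CPM. The change also ran with transcript length. Its median was -0.181 over the 1192 tested genes up to 1 kb (25 higher and 65 lower) and 0.075 over the 4061 genes of 4 to 8 kb (158 higher and 112 lower), beside -0.181 and 0.11 with budesonide alone. With offsets for transcript length and GC content 928 genes differed, 818 of them shared. The part of these RNA shares and markers in the results was not tested.

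With the combination, 993 of the 13852 genes differed from control (7.17%): 462 were higher (3.34%) and 531 lower (3.83%). Every count of list members given below is to be read beside these shares. The median change over all tested genes was 0.009. By a test of a change beyond 1.5-fold, 83 genes passed (0.599%), 48 higher and 35 lower. The 3 samples of the combination lay wholly above or below the 3 controls for 3935 genes (28.4%). The count rests in part on single libraries: 537 genes were called without sample 1 of the combination and 535 without sample 2 (253 and 251 higher, 284 lower in each). Without control 3, 307 genes were higher.

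Proline alone had raised 439 genes (3.17%) and lowered 652 (4.71%). With budesonide added, 781 of these 1091 genes (71.6%) were no longer called against control, where 92.8% of all tested genes were not called. The median change of the proline-raised genes was 0.785 with proline and 0.401 with the combination, and that of the proline-lowered genes was -0.954 and -0.313. A missed call does not show a return, so a gene was counted as back at the control level only where the 95% interval of its change lay within 1.5-fold of control, which held for 2212 of all genes (16%), and where it was called against proline in the direction opposite to the proline change. By that rule 211 proline genes were back, 76 of the raised and 135 of the lowered. Another 283 were still changed in the direction of proline (121 higher and 162 lower), 27 were changed the opposite way, and 570 met none of these rules. Counts by these rules for the gene lists below are to be read beside those over all proline genes. Against proline alone the combination raised 808 genes (5.83%) and lowered 591 (4.27%), among them 329 of the proline-lowered and 138 of the proline-raised genes. The comparisons of proline and of the combination with control use the same 3 controls, so a control sample that lies off moves them together. The genes were picked for their proline change, and the same proline samples serve in the comparison of the combination with proline. An opposite call against proline and a smaller median change with the combination are therefore partly built in, here and in the lists below. The count of genes back at control was 49 with the interval held within a ratio of 5 to 4 and 337 within 2-fold. It was 112 and 123 without sample 1 or 2 of the combination, 127 and 121 without control 1 or 2, and 120 and 123 without sample 1 or 3 of proline. The count still changed was 175 and 174 without sample 1 or 2 of the combination, 185 without control 2, and 185 and 175 without sample 1 or 3 of proline. The count changed the opposite way was 15, 15 and 17 without control 1, 2 or 3, and 15 and 14 without sample 1 or 2 of the combination.

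Proline had lowered most of the naive pluripotency network, and with the combination nearly all of it was not called below control, which alone shows no return. Of 25 tested naive genes, 17 fell with proline and none rose, and each of the 17 was higher with the combination than with proline alone. Against control, the combination left 22 of the 25 uncalled, with Klf2 and Mylpf higher and Gdf3 lower, where 92.8% of all tested genes were uncalled. In edgeR 10 of the 25 had an unadjusted p below 0.05, and 8 had an interval within 1.5-fold of control. Of the 17 that proline lowered, 5 were back by the rule, beside 135 of all 652. The median change of the list was -1.031 with proline, 0.081 with budesonide and 0.029 with the combination. Across the alternative analyses, 15 to 18 naive genes fell with proline and 15 to 17 of those rose again. No naive gene was still lowered in the proline direction with the combination, and at most 1 was in any of those alternatives.

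Tfcp2l1, a transcription factor of the naive network, had 233, 232 and 250.1 CPM in control, 48.5, 55.6 and 50.2 CPM with proline and 185, 179 and 208 CPM with the combination. The combination samples lay far above proline and just below control, with no overlap with either, at a change of -0.32 ± 0.12 against control (95% interval -0.56 to -0.08, adjusted p = 0.0992, range over alternatives 0.0324 to 0.325) and 1.89 ± 0.12 against proline (adjusted p = 3.18e-10). Tfcp2l1 passed the rule for a gene back at control, although DESeq2 and a correction for transcript length and GC content called it lower. It is one of several genes named here because they are well known and with their values in view.

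The orphan nuclear receptor Esrrb had 340.5, 346 and 441 CPM in control, 128, 124 and 103 CPM with proline and 327, 293 and 398 CPM with the combination. Its control and combination samples overlapped and both groups lay above every proline sample, with an interval of -0.43 to 0.14 against control. Klf4, a Kruppel-like factor that helps to reset cells to the naive state, had 177, 193 and 137 CPM in control, 59.3, 57.4 and 65.9 CPM with proline and 149.9, 146 and 129 CPM with the combination. Klf4 overlapped control in the same way (interval -0.56 to 0.06), as did Klf5, at 1064 ± 76.2 CPM in control, 621 ± 27.3 CPM with proline and 1149 ± 62.4 CPM with the combination. These 3 genes and the threonine dehydrogenase Tdh were, with Tfcp2l1, the 5 naive genes back at control by the rule. That number was 2 to 7 over the alternatives, with 3 without control 2 and 2 without sample 1 of the combination.

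Nanog, the homeodomain factor of the naive state, had 260.00, 214 and 178 CPM in control, 100.3, 131 and 102 CPM with proline and 284, 265 and 285 CPM with the combination. All 3 combination samples lay above all 3 controls, but the change of 0.36 ± 0.14 was not called (adjusted p = 0.15, range over alternatives 0.049 to 0.49, interval 0.06 to 0.65). Against proline Nanog rose by 1.33 ± 0.15 (adjusted p = 1.93e-06). The T-box factor Tbx3 went from 119.8 ± 5.17 CPM in control to 22.9 ± 2.27 CPM with proline and 155 ± 7.59 CPM with the combination, and its change against control of 0.37 ± 0.13 was likewise uncalled (adjusted p = 0.0923, range over alternatives 0.0369 to 0.29). For such genes the interval reached past 1.5-fold, so neither a return to control nor a level above it was shown.

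Klf2, a Kruppel-like factor of the naive network, had 412, 482 and 455 CPM in control, 238, 216 and 219 CPM with proline, 755, 912 and 924 CPM with budesonide and 742, 791 and 685 CPM with the combination. Proline lowered it and the combination raised it above every control sample, by 0.72 ± 0.11 (adjusted p = 0.000186). Mylpf, a myosin light chain gene used as a marker of naive cells, had 164, 162 and 168 CPM in control, 71.6, 60.2 and 57.5 CPM with proline and 274, 254 and 231 CPM with the combination. It too lay below control with proline and above it with the combination, by 0.62 ± 0.12 (adjusted p = 0.00217). Klf2 and Mylpf also rose with budesonide alone, by 0.94 ± 0.11 and 0.66 ± 0.12. Gdf3, a ligand of the TGF-beta family, was the naive gene that fell, from 166, 191 and 181 CPM to 125, 110.00 and 119 CPM, a change of -0.60 ± 0.13 (adjusted p = 0.00478) where proline alone gave -0.33 ± 0.13 (adjusted p = 0.129) and budesonide alone -0.49 ± 0.13 (adjusted p = 0.0219).

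**Figure D1:**
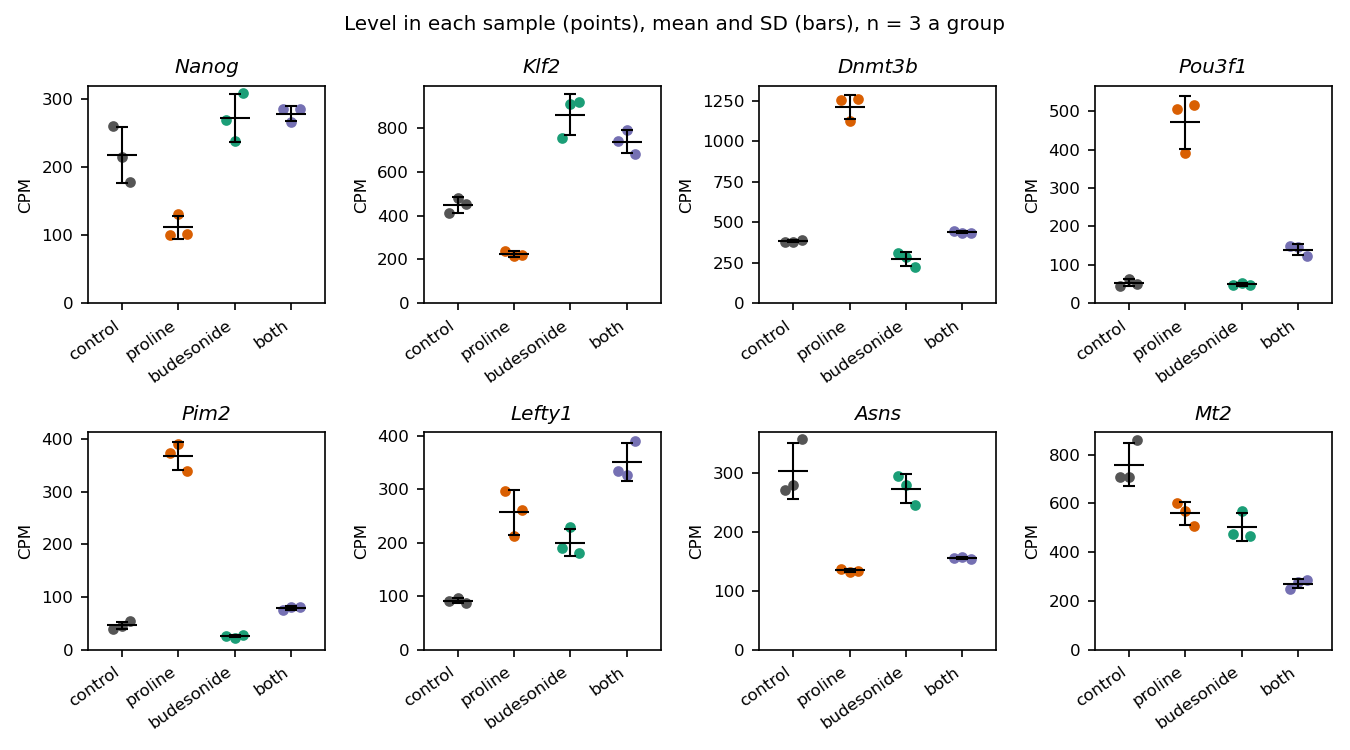
Level of 8 genes in each of the 12 samples, in CPM on linear axes from 0, by group; points are samples, and the lines show the mean and SD (n = 3). Nanog is near control with the combination, Klf2 lies above control, Pou3f1 and Pim2 lie between control and proline, Asns stays near its proline level, and Lefty1 and Mt2 are farther from control with the combination than with either compound.

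Of 16 general pluripotency factors tested, 1 rose and 4 fell with the combination (0 to 1 and 3 to 4 over the alternatives), where 3.34% of all tested genes rose and 3.83% fell. Sox2 was at 572, 527 and 479 CPM in control and 585, 569 and 557 CPM with the combination, groups that overlapped, with a change of 0.12 ± 0.11 (interval -0.11 to 0.34). Pou5f1 was at 33.2, 29.3 and 27 CPM and 23.4, 36.4 and 20.8 CPM, also overlapping, but it has near-identical pseudogene copies and how reads that match several genes were counted is not given in the sources used here, so its level is uncertain. The 4 members that fell included Tdgf1, the Nodal co-receptor Cripto, which went from 833 ± 143 to 553 ± 59.8 CPM (-0.59 ± 0.13, adjusted p = 0.00595). Budesonide alone gave Tdgf1 -0.93 ± 0.13 and proline alone 0.21 ± 0.13.

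The formative and primed epiblast programme, which proline raised, came down with the combination but not all the way. Of 26 tested genes, 11 rose and 1 fell with proline, and 8 of the 11 were lower with the combination than with proline. Against control 6 rose and 2 fell with the combination. Still higher, beside 121 of all 439 proline-raised genes, were 5 of the 11: Pou3f1, Zic5, Tead2, Pim2 and Fgf5. The median change of the list was 1.219 with proline, -0.373 with budesonide and 0.242 with the combination. Over the alternatives 4 to 7 members were higher than control and 4 to 6 remained in the proline direction.

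Pou3f1, a POU factor of the primed epiblast, had 45.3, 63.2 and 50.4 CPM in control, 507, 390.00 and 516 CPM with proline and 149.8, 146 and 123 CPM with the combination. The combination samples lay between the 2 groups without overlap, -1.76 ± 0.15 against proline (adjusted p = 2.63e-08) and 1.40 ± 0.15 against control (adjusted p = 3.48e-06). The serine/threonine kinase gene Pim2 had 39.8, 44.5 and 54 CPM in control, 374, 391 and 339.6 CPM with proline and 74.6, 80.9 and 81.5 CPM with the combination. Pim2 was again intermediate and apart from control (0.78 ± 0.14, adjusted p = 0.00133), while budesonide alone had lowered it (-0.85 ± 0.15, adjusted p = 0.000956).

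For other formative genes no fall from the proline level was called. The zinc finger factor Zic5 had 32.4, 37.6 and 20.5 CPM in control, 51, 77.3 and 71.7 CPM with proline and 74, 67 and 58.2 CPM with the combination, a change of 1.14 ± 0.24 against control (adjusted p = 0.00404) with no call against proline (adjusted p = 0.996). Tead2, a DNA-binding partner of Yap, was at 23.1 ± 3.94 CPM in control, 77.3 ± 5.51 CPM with proline and 52.7 ± 10.8 CPM with the combination (1.19 ± 0.20, adjusted p = 0.000568), and its difference from proline of -0.55 ± 0.19 was not called (adjusted p = 0.072). Fgf5, the growth factor of the epiblast after implantation, had 1 count over the 3 controls and 76 over the 3 samples of the combination, a ratio of 64.9 (95% counting interval 11.3 to 2595), where proline had 295 counts. The second combination sample was nearly as low as control, at 5.84, 0.292 and 4.8 CPM, and limma-voom did not call Fgf5 (adjusted p = 0.195, range over alternatives 0.000499 to 0.195).

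Further members lay below proline and above control without a call against control. Otx2, a homeodomain factor that acts at the exit from the naive state, was at 114, 101 and 107 CPM in control, 261, 242 and 246 CPM with proline and 138, 122 and 169 CPM with the combination, an uncalled change of 0.41 ± 0.14 (adjusted p = 0.0782, range over alternatives 0.041 to 0.339). The Wnt effector Lef1 was at 25.3 ± 5.8 CPM in control, 77.7 ± 9.3 CPM with proline and 35.5 ± 1.51 CPM with the combination (0.49 ± 0.23, adjusted p = 0.223). The RNA-binding protein Rbpms2 fell below control instead, from 753 ± 29.6 to 414 ± 87.6 CPM (-0.86 ± 0.13, adjusted p = 0.000127), with -0.93 ± 0.13 for budesonide alone. The ETS factor Etv4, a target of FGF signalling, also fell (-1.22 ± 0.23).

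Most of the DNA methylation writers and oxoglutarate-dependent enzymes that proline had changed were back at control. Of 30 tested writers and oxoglutarate-dependent erasers, proline had raised 3 and lowered 4, and 6 of those 7 were back with the combination (3 to 6 over the alternatives, with 3 without sample 2 of the combination). Over all tested genes, 211 of the 1091 proline genes were back. None of the 30 was called by edgeR with the combination, 10 had an unadjusted p below 0.05, and the alternatives called 0 to 2 in each direction. Dnmt3b, a de novo DNA methyltransferase, had 378, 379.5 and 389 CPM in control, 1252, 1125 and 1259 CPM with proline and 444, 431 and 435 CPM with the combination. Its combination samples lay slightly above all controls and far below proline, with an interval of -0.04 to 0.42 against control and a change of -1.47 ± 0.11 against proline (adjusted p = 6.15e-09). Dnmt3a, the second de novo enzyme, had 109.5, 123 and 99.5 CPM in control, 304, 301 and 287 CPM with proline and 102, 104 and 120.00 CPM with the combination, an overlap with control at -0.02 ± 0.13. Tet2 and Tet1, which oxidise methylated cytosine, were among the 4 members that proline lowered. Tet2 was at 90.00 ± 21.4 CPM in control, 27.8 ± 5.82 CPM with proline and 81.7 ± 7.93 CPM with the combination, and Tet1 at 539 ± 49.7, 270.1 ± 24.8 and 427 ± 29.8 CPM. Tet1 was back by the rule but lay below control in every sample (-0.34 ± 0.11, adjusted p = 0.0697, range over alternatives 0.0171 to 0.224).

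Nodal and BMP pathway genes changed in both directions. Of 22 tested, 4 rose and 4 fell with the combination, beside 3.34% and 3.83% of all tested genes. Of the 6 genes that proline had changed, 4 were still changed the same way, beside 283 of all 1091. Lefty1, an inhibitor of Nodal, had 91.1, 96.8 and 86.7 CPM in control, 297, 212 and 261 CPM with proline, 190.5, 229.7 and 181 CPM with budesonide and 334, 326 and 391 CPM with the combination. Every combination sample was above every sample of the other groups, a change of 1.94 ± 0.14 against control (adjusted p = 1.44e-08). Lefty2, its neighbour and close relative, had 45.8, 46.1 and 34.4 CPM in control and 156, 160.1 and 136 CPM with the combination, also without overlap (1.84 ± 0.17, adjusted p = 4.69e-07). The Lefty genes are similar in sequence, so reads could have been split between them. The activin and Nodal receptor Acvr2b rose by 1.06 ± 0.17 (adjusted p = 0.000271) and Nodal itself was at 114 ± 24.4 CPM in control and 112 ± 5.2 CPM with the combination (-0.03 ± 0.15, interval -0.35 to 0.29).

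On the BMP side, the ligand Bmp4 had 75.8, 84 and 82.3 CPM in control, 30.4, 32.1 and 28.6 CPM with proline and 46.3, 50.7 and 48.1 CPM with the combination. It stayed below control without overlap (-0.74 ± 0.17, adjusted p = 0.00829, range over alternatives 0.000425 to 0.0546, with 0.0546 without sample 1 of the combination), although above proline. Id1, a target of BMP signalling, went from 201 ± 6.26 to 134 ± 3.89 CPM (-0.59 ± 0.12, adjusted p = 0.00304), with -0.42 ± 0.12 for budesonide alone. Id3, of the same list, rose instead (0.75, adjusted p = 0.0491), a call that 9 of the 21 alternatives ended. The changes of Id2 (0.306), Smad6 (1.821), Smad7 (0.304) and Bmp7 (0.487) were above 0 and uncalled, so the BMP genes had no common direction. In the FGF and ERK list 5 of 24 rose and 3 fell, beside 3.34% and 3.83% of all tested genes. The number that rose was 2 without control 1 and in limma-voom, and 3 without control 3, sample 3 of proline or any 1 sample of the combination. The receptor Fgfr1 went from 27.8, 31 and 24.2 CPM in control to 58.4, 53.7 and 62.6 CPM with the combination (1.07 ± 0.21, adjusted p = 0.00257), where proline gave 0.31 ± 0.21 and budesonide 0.58 ± 0.21, neither called. The immediate early gene Egr1, induced by ERK, went from 45.8, 51.5 and 46.3 CPM to 13.1, 24.3 and 7.2 CPM (-1.69 ± 0.33, adjusted p = 0.00234), and neither proline (-0.87 ± 0.32) nor budesonide (-1.005 ± 0.32) was called alone. Other members of the list went the other way or stayed near 0. Il17rd (0.821) and Spry2 (0.44) rose, calls that 8 and 10 alternatives ended. Dusp6 (0.006), Spry4 (0.036) and Etv5 (-0.09) were uncalled.

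In the amino acid starvation response, 8 of the 11 proline-lowered genes were still lower with the combination, beside 162 of all 652 such genes. Its genes, targets of Atf4, serve amino acid synthesis, uptake and tRNA charging. Of 38 tested, 13 fell and 2 rose with the combination (8 to 14 fell over the alternatives, with 8 without sample 2 of the combination). Proline alone had lowered 11 and raised 1, and 9 of those 12 were still changed the same way, with none back at control. The genes still lower numbered 5 to 11 over the alternatives, and 5 of 8 without sample 1 of proline. Proline had lowered 7 without control 2, control 3 or sample 2 of proline, and 6 of those 7 were still lower in each case. Budesonide alone lowered 1 and raised 2. The median change was -0.474 with the combination, -0.304 with proline and -0.123 with budesonide, beside 0.009 for all genes with the combination.

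Atf4 binds, with a partner of the C/EBP family, to sites with the core letters TGATGNAAN. These letters were looked for on both strands in the RefSeq promoter windows, 250 bases before to 50 bases after each gene start (build GRCm38.p6; the counts were made on GRCm39, so genes were matched by symbol alone). A gene was counted where any of its windows held them. They stood in 6 of the 11 fallen members of the list that had a window (54.5%) and in 6 of 19 uncalled members (31.6%). The share was 2.66% of the 10057 tested genes with a window and 4.50% of all 27025 gene symbols with one. Among all genes with a window it was 4.75% of the 400 lower with the combination and 3.39% of the 354 higher. The amino acid list was built from known Atf4 targets, so a share above that of all genes is built in. The windows below, of 61 bases centred on the match, show 5 of these fallen members and Pck2, a gene outside the list, each 5′ to 3′ on the strand of the gene with the match in capitals. In all but Asns the capitals are the reverse complement of the letters above. A match describes the sequence and does not show that Atf4 binds there.
Asns, chr6:7693198-7693258, minus strand: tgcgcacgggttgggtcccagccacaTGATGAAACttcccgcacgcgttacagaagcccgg
Chac1, chr2:119351022-119351082, plus strand: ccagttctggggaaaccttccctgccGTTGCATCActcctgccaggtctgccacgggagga
Nupr1, chr7:126625547-126625607, minus strand: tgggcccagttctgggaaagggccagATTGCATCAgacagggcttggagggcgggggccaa
Trib3, chr2:152344013-152344073, minus strand: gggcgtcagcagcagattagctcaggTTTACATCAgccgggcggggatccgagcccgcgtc
Gars, chr6:55037944-55038004, plus strand: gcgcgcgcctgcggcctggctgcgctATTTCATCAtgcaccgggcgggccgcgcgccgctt
Pck2, chr14:55540136-55540196, plus strand: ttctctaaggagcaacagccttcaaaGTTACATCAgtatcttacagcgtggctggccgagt

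Asns, asparagine synthetase, whose match begins at position -23 from the gene start, had 271, 279 and 357 CPM in control, 137, 132 and 134 CPM with proline, 295, 279 and 246 CPM with budesonide and 156, 157 and 153 CPM with the combination. The combination samples were close to each other and below every control and budesonide sample, at -0.96 ± 0.13 against control (adjusted p = 3.72e-05). Against proline the difference of 0.21 ± 0.12 was not called (adjusted p = 0.341). The cysteine synthesis enzyme Cth had 67.2, 63.8 and 68.8 CPM in control and 26.9, 23 and 27.1 CPM with the combination, with 24.3, 32.9 and 21.5 CPM with proline. Cth was at its proline level and apart from control (-1.38 ± 0.20, adjusted p = 0.000115), with -0.14 ± 0.19 for budesonide.

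Atf4 itself had 439.8, 436 and 527 CPM in control and 280.4, 321 and 307 CPM with the combination. It fell without overlap (-0.63 ± 0.12, adjusted p = 0.00143), as it did with proline (-0.53 ± 0.12). Nupr1, a stress-induced chromatin protein, had 20.9, 14.5 and 21 CPM in control and 3.69, 1.75 and 4.27 CPM with the combination (-2.53 ± 0.49, adjusted p = 0.002). The cationic amino acid transporter Slc7a1 was at 124 ± 7.51 CPM in control, 47 ± 3.62 CPM with proline and 64.3 ± 5.45 CPM with the combination (-0.95 ± 0.15, adjusted p = 0.000268), and the pseudokinase Trib3 went from 44.4 ± 1.09 to 23.1 ± 3.48 CPM (-0.94 ± 0.22, adjusted p = 0.00775, range over alternatives 0.000488 to 0.0627, with 0.0627 without sample 2 of the combination).

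Chac1, which breaks down glutathione, followed a different course. It had 19.3, 19.5 and 19.7 CPM in control, 24.9, 16.4 and 25.3 CPM with proline, 15.2, 11.9 and 3.82 CPM with budesonide and 6.15, 6.87 and 4.67 CPM with the combination. Chac1 fell with the combination (-1.73 ± 0.40, adjusted p = 0.00787). Proline gave 0.19 ± 0.37 and budesonide -0.91 ± 0.38, neither called, and the difference between the combination and budesonide was not called either (adjusted p = 0.388). The pro-apoptotic factor Ddit3, by contrast, was at 7.67 ± 0.892 CPM in control, 2.06 ± 1.11 CPM with proline and 7.83 ± 0.695 CPM with the combination, overlapping control with a wide interval of -1.05 to 1.11. The 2 members that rose were transporter genes: Slc3a2, the heavy chain of several amino acid exchangers, at 0.79 ± 0.15 and Slc38a2, which carries proline and glutamine, at 0.83 ± 0.09 (adjusted p = 0.00176 and 4.89e-06). Slc38a2 had 585, 602 and 625 CPM in control and 1040, 1090 and 1088 CPM with the combination, without overlap.

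**Figure D2:**
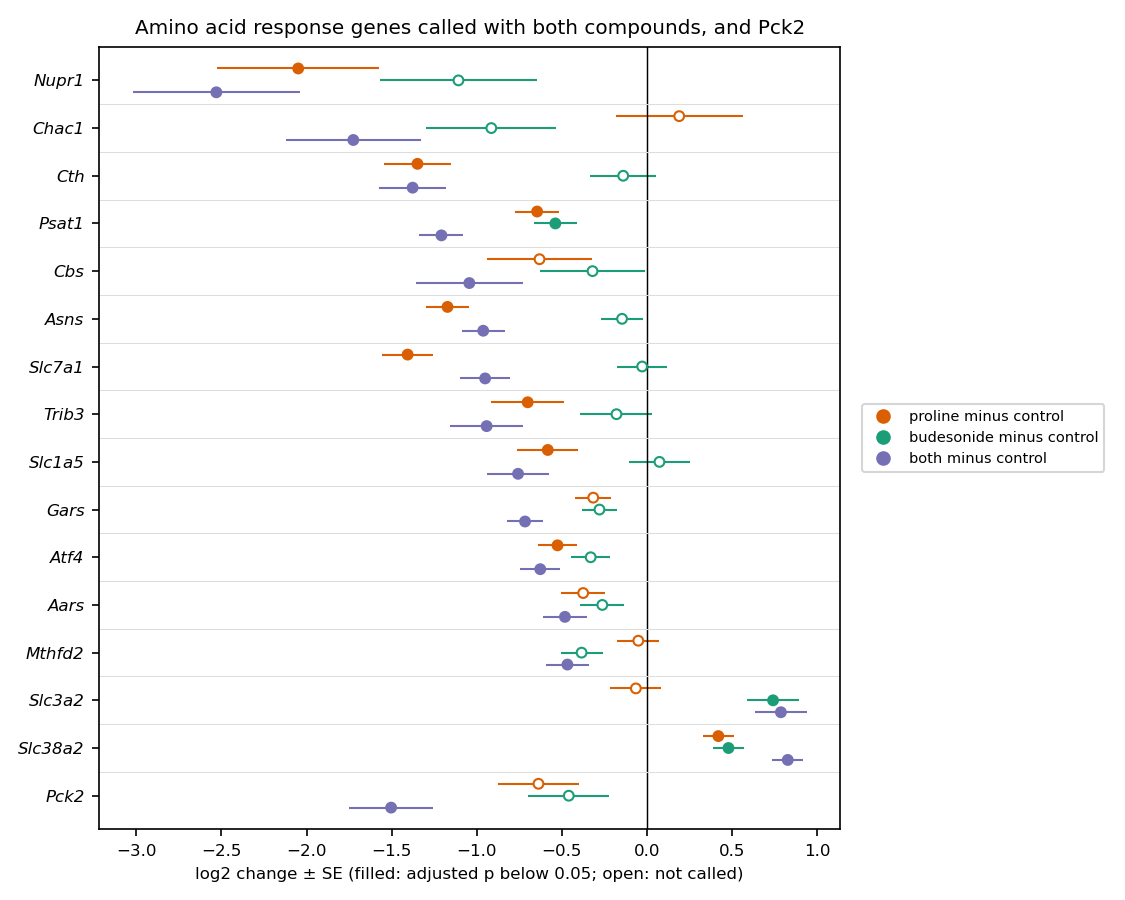
Change against control, log2 ± SE, of the 15 called amino acid response genes and of Pck2 with proline, budesonide and the combination; filled points have an adjusted p below 0.05. Most members lie below 0 with the combination, Asns and Cth near their proline values, and Slc3a2 and Slc38a2 lie above 0.

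Of 17 enzymes and carriers of proline itself, 2 rose and 2 fell, beside 3.34% and 3.83% of all tested genes. Aldh4a1, a mitochondrial enzyme of proline breakdown, went from 61.4, 68.2 and 73.1 CPM to 40.5, 41.1 and 37.9 CPM (-0.76 ± 0.18, adjusted p = 0.00881), where neither compound alone was called. Prodh, the first enzyme of breakdown, was at 15.4 ± 3.6 and 17.2 ± 2.78 CPM (0.16 ± 0.32, interval -0.50 to 0.82).

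Genes of cholesterol and fatty acid synthesis that differed were all higher with the combination. Of 33 tested, 9 rose and none fell, against 7 and 1 with proline and 4 and 0 with budesonide, and 5 of the proline-raised genes were still raised. The list's median change was 0.564 with the combination, 0.373 with proline and 0.32 with budesonide. Over the alternatives 8 to 10 rose and none fell. The proline-raised genes numbered 3 without control 2 or sample 2 of proline, and 4 without control 1, control 3 or sample 1 of proline, and in these cases all of them were still raised. These genes are driven by the SREBP transcription factors, whose own genes were among the 9.

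Scd2, a stearoyl-CoA desaturase, had 68.6, 52.8 and 105 CPM in control, 140.3, 179 and 189.8 CPM with proline, 123, 109 and 128 CPM with budesonide and 220.4, 235 and 238 CPM with the combination. The combination samples lay above those of every other group (1.61 ± 0.18 against control, adjusted p = 6.16e-06), though the difference from proline was not called (adjusted p = 0.115). Scd1, its relative, went from 13.4 ± 5.14 to 43.2 ± 13.4 CPM (1.68 ± 0.30, adjusted p = 0.000884).

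Srebf1, which encodes the SREBP of fatty acid synthesis, had 23.9, 12.7 and 7.25 CPM in control and 49.1, 55.4 and 41.8 CPM with the combination (1.74 ± 0.40, adjusted p = 0.00744). The groups did not overlap, and neither compound alone was called for Srebf1 (0.13 ± 0.40 with proline, 0.82 ± 0.39 with budesonide). Insig1, which retains SREBP in the endoplasmic reticulum, rose in the same pattern (1.65 ± 0.35, adjusted p = 0.0048; 0.72 ± 0.35 with proline, 0.87 ± 0.35 with budesonide). The synthesis enzymes Cyp51, the sterol demethylase, and Fasn, fatty acid synthase, rose by 0.79 ± 0.18 and 0.72 ± 0.13 (adjusted p = 0.00681 and 0.000988).

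Genes that carry or export lipid were mixed, with 8 of 23 higher and 2 lower (5 to 8 higher over the alternatives, with 5 without sample 1 of the combination), and 3 of the 7 proline genes changed the opposite way. Apoe, an apolipoprotein, had 547, 608 and 683 CPM in control, 404, 379 and 400.00 CPM with proline and 1140, 1198 and 1152 CPM with the combination. Proline put every Apoe sample below control and the combination put every sample above (0.92 ± 0.10, adjusted p = 4.8e-06), with 0.68 ± 0.10 for budesonide alone. The cholesterol exporter Abca1 had 17.7, 22.2 and 6.63 CPM in control, 5.04, 9.18 and 4.45 CPM with proline and 43.7, 49.4 and 39 CPM with the combination (1.51 ± 0.35, adjusted p = 0.00843), lowered by proline and raised by the combination. Apod, another lipid-binding protein, stayed down, from 12.9, 15.8 and 23.1 CPM in control to 1.69, 3.8 and 1.2 CPM (-2.95 ± 0.55, adjusted p = 0.00144; -2.66 ± 0.54 with proline).

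The channel Aqp3, which passes water and glycerol, had 2.46, 1.35 and 4.47 CPM in control, 1.43 ± 1.46 CPM with proline, 7.78, 10.8 and 4.35 CPM with budesonide and 18.8, 29.8 and 24.7 CPM with the combination. Its combination samples lay above all others (3.12 ± 0.66, adjusted p = 0.00423), while neither compound alone was called. Enpp2, the secreted enzyme autotaxin that makes lysophosphatidic acid, was at 4.96 ± 0.624 CPM in control, 46.3 ± 5.13 CPM with proline, 1.77 ± 0.194 CPM with budesonide and 12.4 ± 2.11 CPM with the combination. The combination thus lay above control (1.32 ± 0.30, adjusted p = 0.00774, range over alternatives 0.00156 to 0.114, with 0.114 in limma-voom and 0.0535 without sample 1 of the combination), between the opposite changes of proline (3.22 ± 0.31) and budesonide (-1.47 ± 0.34).

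**Figure D3:**
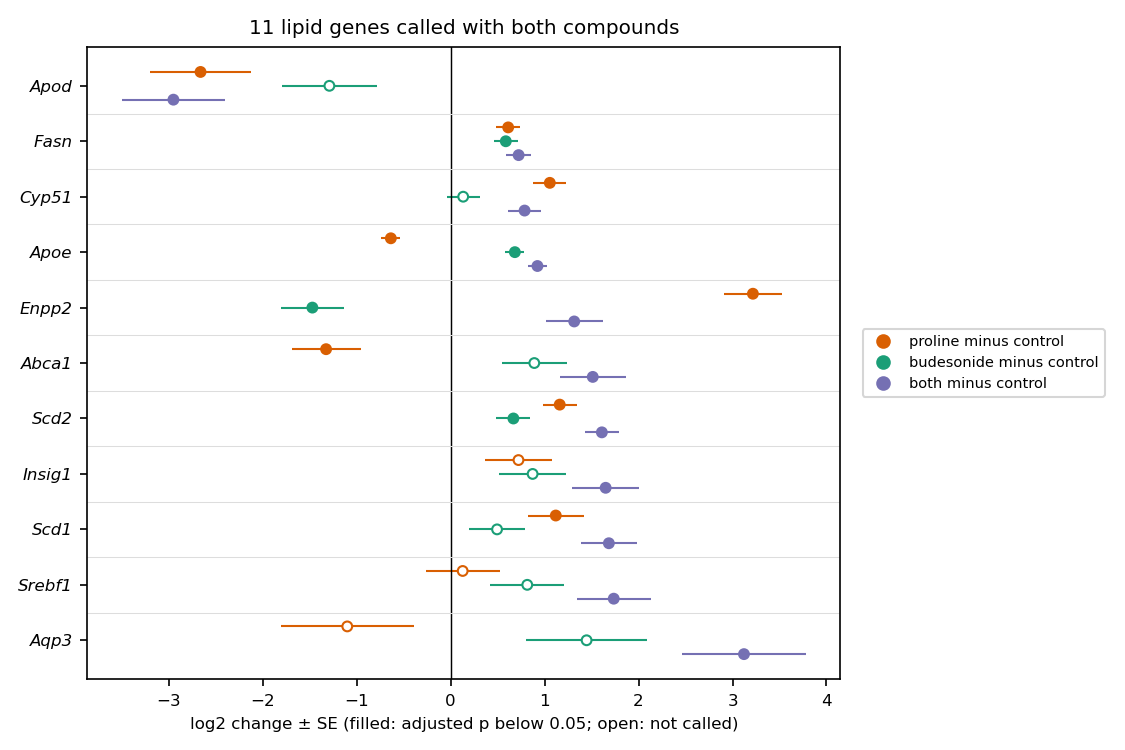
Change against control, log2 ± SE, of 6 lipid synthesis genes and 5 lipid carrier or related genes called with the combination and described here, for proline, budesonide and the combination; filled points have an adjusted p below 0.05. Apoe and Abca1 lie below 0 with proline and above 0 with the combination, and the 6 synthesis genes lie above 0 in all 3 comparisons.

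In the glycolysis and hypoxia list 8 of 33 rose and none fell (5 to 11 higher and 0 or 1 lower over the alternatives, with 5 higher without sample 2 of the combination), and 4 of the 10 proline genes kept their direction (3 to 7 over the alternatives). The glucose transporter Slc2a1 had 541, 533 and 487 CPM in control, 747, 750.3 and 734 CPM with proline and 820.5, 851 and 944 CPM with the combination (0.74 ± 0.10, adjusted p = 3.72e-05). The second transporter, Slc2a3, had 394, 385 and 469.6 CPM in control, 302 ± 5.04 CPM with proline and 831, 721 and 947 CPM with the combination, from below control to above it (1.001 ± 0.12, adjusted p = 7.92e-06). The lactate exporter Slc16a3 was at 96 ± 2.01 CPM in control, 257 ± 43.5 CPM with proline and 170.2 ± 19.6 CPM with the combination (0.83 ± 0.14, adjusted p = 0.00077). Lactate dehydrogenase Ldha, raised by proline to 1962 ± 147 CPM, was at 1307, 1211 and 1365 CPM in control and 1009, 1044 and 1331 CPM with the combination and overlapped control, back by the rule (-0.20 ± 0.11, interval -0.42 to 0.02). Tpi1 and Gpi1, which encode enzymes of glycolysis, rose by 0.52 ± 0.12 and 0.54 ± 0.11. Many glycolysis genes have near-identical pseudogenes, so their counts are uncertain.

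In the list of 30 genes for collagens and basement membrane, the combination raised 6 and lowered 3, where proline lowered 6 and raised none and budesonide raised 7 and lowered 2. The combination raised 3.34% and lowered 3.83% of all tested genes. Over the alternatives it raised 4 to 7 of the list and lowered 2 to 4. Without control 2 the combination raised 4 and proline lowered 3. Of the 9 genes that budesonide changed, 7 were still changed the same way, beside 427 of all 902 budesonide genes. Hspg2, the heparan sulfate proteoglycan perlecan, had 108, 130.3 and 106 CPM in control, 73.2, 69 and 48.1 CPM with proline, 254, 274 and 348 CPM with budesonide and 269.6, 267 and 198 CPM with the combination. The combination was above control and near budesonide (1.09 ± 0.17, adjusted p = 0.000187), on the opposite side of control from proline. Fibronectin, Fn1, had 425, 353 and 423 CPM in control and 656, 681 and 688 CPM with the combination (0.75 ± 0.11, adjusted p = 0.000186), and the laminin chain Lama5 119.9, 119 and 89.3 CPM and 194, 215 and 187 CPM (0.86 ± 0.15, adjusted p = 0.000579). Proline alone changed neither (-0.13 ± 0.11 and 0.03 ± 0.15, both uncalled). Members that fell included the laminin chain Lamb1 (-0.56 ± 0.13) and Sparc, a collagen-binding matrix protein (-0.76 ± 0.12). Extraembryonic endoderm, a tissue that makes basement membrane, had markers at a higher summed level with the combination, as given above, and their part in these changes was not tested.

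Trophoblast and keratin genes rose in 5 of 22 with none lower (4 to 6 and 0 over the alternatives), and the median change of the list was 0.97. The keratin Krt18 had 12.9, 13.9 and 9.87 CPM in control and 36.1, 24.7 and 38.8 CPM with the combination (1.44 ± 0.32, adjusted p = 0.00551), and budesonide alone gave 1.47 ± 0.32. The epithelial ETS factor Elf3 went from 15.4 ± 3.53 to 36.6 ± 2.4 CPM (1.247 ± 0.28, adjusted p = 0.00692) and Tfap2c, an AP-2 factor, from 40.6 ± 1.69 to 78.4 ± 11 CPM (0.95 ± 0.21, adjusted p = 0.00558). Trophoblast markers summed to like levels in both groups, as given above, and their part was not tested. Of 35 adhesion and epithelial genes 2 rose and 2 fell (1 to 4 each over the alternatives), beside 3.34% and 3.83% of all tested genes. E-cadherin, Cdh1, was at 591, 724 and 693 CPM in control and 830.00, 834 and 686 CPM with the combination, groups that overlapped (0.23 ± 0.15, interval -0.08 to 0.53), and Epcam, raised by proline, was back at control (0.16 ± 0.14, interval -0.13 to 0.45).

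Among the glucocorticoid receptor and its classic targets, 3 of 27 rose and 5 fell, beside 3.34% and 3.83% of all tested genes. The median change of the list was 0.01. The number that fell was 2 without control 3 or sample 1 or 2 of the combination, and 3 without control 2 or sample 3 of the combination. Fkbp5, a co-chaperone of the receptor and a standard target, had 102, 93.3 and 104 CPM in control and 104, 98.3 and 95.9 CPM with the combination, overlapping groups with an interval of -0.34 to 0.33. The receptor gene Nr3c1 was at 9.98, 13.3 and 9.87 CPM and 14, 14.8 and 14.7 CPM (0.39 ± 0.31, adjusted p = 0.54). Tsc22d3, which encodes the glucocorticoid-induced leucine zipper, had 9 counts over the controls and 41 over the combination samples, and its change was not called (adjusted p = 0.53). Klf9, a zinc finger factor, rose from 699 ± 14.1 to 1013 ± 51.4 CPM (0.54 ± 0.09, adjusted p = 0.000674), and Nfkbia, the NF-kappaB inhibitor, lay above control with the combination (0.68 ± 0.13, adjusted p = 0.00171) and below it with proline (-0.66 ± 0.13). Cdkn1c, the cell cycle inhibitor p57, went from 193, 199 and 225 CPM to 84, 77.8 and 66.8 CPM (-1.44 ± 0.17, adjusted p = 1.16e-05), as with budesonide alone (-1.59 ± 0.17).

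Among the 24 regulators of G1, 1 rose and 3 fell, beside 3.34% and 3.83% of all tested genes. Cyclin D1, Ccnd1, had 78.5, 87.5 and 71.7 CPM in control, 79.8, 80.7 and 88.8 CPM with proline, 37, 25.1 and 22.3 CPM with budesonide and 38.6, 34.6 and 32.8 CPM with the combination. The combination lay with budesonide, below all controls (-1.16 ± 0.19, adjusted p = 0.000451). Cyclin D2, Ccnd2, went from 65.1 ± 3.82 to 33.6 ± 4.29 CPM (-0.95 ± 0.19, adjusted p = 0.0029). In the LIF and Stat3 list 4 of the 7 proline genes were back at control (2 without control 1 or sample 1 or 2 of the combination), beside 211 of all 1091. Klf4, Klf5 and Tfcp2l1, already counted above as naive genes back at control, are among these 4, so this is no separate result. With the combination 3 of the 23 LIF and Stat3 genes rose with none lower (2 to 3 and 0 to 2 over the alternatives). Among the 3 was the cytokine signalling suppressor Socs2, from 131, 155 and 141 CPM to 333, 324 and 288 CPM (1.15 ± 0.12, adjusted p = 4.12e-06; 0.97 ± 0.12 with budesonide). In the Wnt list 3 of 20 rose and 2 fell, beside 3.34% and 3.83% of all tested genes. The transcriptional repressor Tcf7l1 rose by 1.10 ± 0.18 (adjusted p = 0.000401).

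Budesonide alone raised 348 genes (2.51%) and lowered 554 (4.0%), and 427 of these 902 were still changed the same way with the combination, 177 higher and 250 lower. Their median change with budesonide was 0.886 for the raised and -0.66 for the lowered genes, and with the combination 0.711 and -0.453. The 2 genes that budesonide lowered and the combination raised were Enpp2 and Pim2, both raised by proline alone. Against budesonide the combination raised 121 genes (0.874%) and lowered 82 (0.592%). Of the 993 genes called with the combination, 86 were called the same way for each compound alone, 197 for proline and not budesonide, 341 for budesonide and not proline, and 369 for neither. These comparisons share the control samples, and a gene uncalled for a compound alone is not shown to differ between that compound and the combination.

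A stricter rule asked that the combination differ in 1 direction from control, from proline and from budesonide alike. It held for 16 genes: Cd63, Cds1, Ifitm1, Lefty1, Macroh2a1, Pdia6, Taf1d and Vim were higher, and Etv4, Gars, Mettl16, Mt2, Pck2, Psat1, Rfc1 and Sox12 were lower. The count was 25 without control 3, 6 or 7 without any 1 sample of the combination, 7 to 10 without control 1, budesonide 2 or 3, or any 1 sample of proline, and 11 and 12 without control 2 or budesonide 1. Of the 16, 9 were uncalled for each compound alone. In edgeR the interaction, the budesonide effect with proline minus that without it, was called for 65 of all genes (0.469%) and for none of the 16. Its unadjusted p was below 0.05, in the direction of the change, for 7 of the 16.

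Mt2, a metallothionein that binds zinc and copper, was in this class in all 20 alternatives that could test it. It had 709.5, 707 and 860.5 CPM in control, 601, 568 and 509 CPM with proline, 474, 568 and 465 CPM with budesonide and 249, 276 and 285 CPM with the combination. The 3 combination samples lay far below all others (-1.49 ± 0.12 against control, adjusted p = 2.74e-08). Each compound alone had lowered Mt2 by less (-0.44 ± 0.11 with proline, -0.59 ± 0.11 with budesonide). In edgeR none of 13 metallothionein and zinc transport genes rose and 2 fell, with 7 at an unadjusted p below 0.05 (0 to 2 rose over the alternatives).

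Ifitm1, an interferon-induced membrane protein that is also a germ cell marker, was in the class in 19 of the 20 alternatives. It had 182, 224 and 279 CPM in control, 256, 234 and 217 CPM with proline, 266, 266 and 209 CPM with budesonide and 391, 404 and 408 CPM with the combination. The combination samples were tightly grouped above all others (0.81 ± 0.14, adjusted p = 0.000653), and neither compound alone was called (0.05 ± 0.14 and 0.11 ± 0.14). Macroh2a1, which encodes a histone variant found in repressed chromatin, stood at 67.1, 64.6 and 86.2 CPM in control, 76, 70.01 and 82 CPM with proline, 84.8, 91.8 and 88 CPM with budesonide and 132, 146 and 157 CPM with the combination (0.998 ± 0.15, adjusted p = 0.000177). It was in the class in 17 alternatives.

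The tetraspanin Cd63, a protein of late endosomes and exosomes, had 105, 128 and 115 CPM in control, 124, 107 and 113 CPM with proline, 245, 242 and 206 CPM with budesonide and 338, 378 and 316 CPM with the combination. Proline left Cd63 near control (-0.02 ± 0.13), budesonide raised it (0.99 ± 0.13) and the combination raised it further (1.57 ± 0.13; 0.58 ± 0.12 against budesonide, adjusted p = 0.0201). Pdia6, a protein disulfide isomerase of the endoplasmic reticulum, went from 357, 345 and 342 CPM to 531, 513 and 559.7 CPM (0.62 ± 0.10, adjusted p = 0.000349). They were in the class in 16 and 15 alternatives.

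Of the 8 lower genes, 2 (Psat1 and Gars) are members of the amino acid list. The promoter windows of Gars and of Pck2, a gene outside the list, are shown above, and Psat1 was not among the genes with a match. Psat1, an enzyme of serine synthesis, had 388, 349 and 462 CPM in control, 249, 253 and 266 CPM with proline, 272, 282 and 272 CPM with budesonide and 164, 150.5 and 205 CPM with the combination, which lay below every other sample (-1.21 ± 0.13, adjusted p = 3.48e-06; in the class in 18 alternatives). Pck2, the mitochondrial phosphoenolpyruvate carboxykinase, had 35.7, 41.6 and 46.7 CPM in control and 15.7, 16.2 and 11.9 CPM with the combination (-1.503 ± 0.25, adjusted p = 0.000428; 12 alternatives). The glycyl-tRNA synthetase Gars went from 458 ± 25.4 to 279 ± 14 CPM (-0.72 ± 0.11, adjusted p = 0.000155; 8 alternatives). Etv4 was at 49.2 ± 10.3 CPM in control, 38.9 ± 2.64 CPM with proline, 40.2 ± 3.35 CPM with budesonide and 21.1 ± 6.18 CPM with the combination (-1.22 ± 0.23, adjusted p = 0.00159; 9 alternatives). Lefty1 was in the class in 14 alternatives and the intermediate filament gene Vim in 6.

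**Figure D4:**
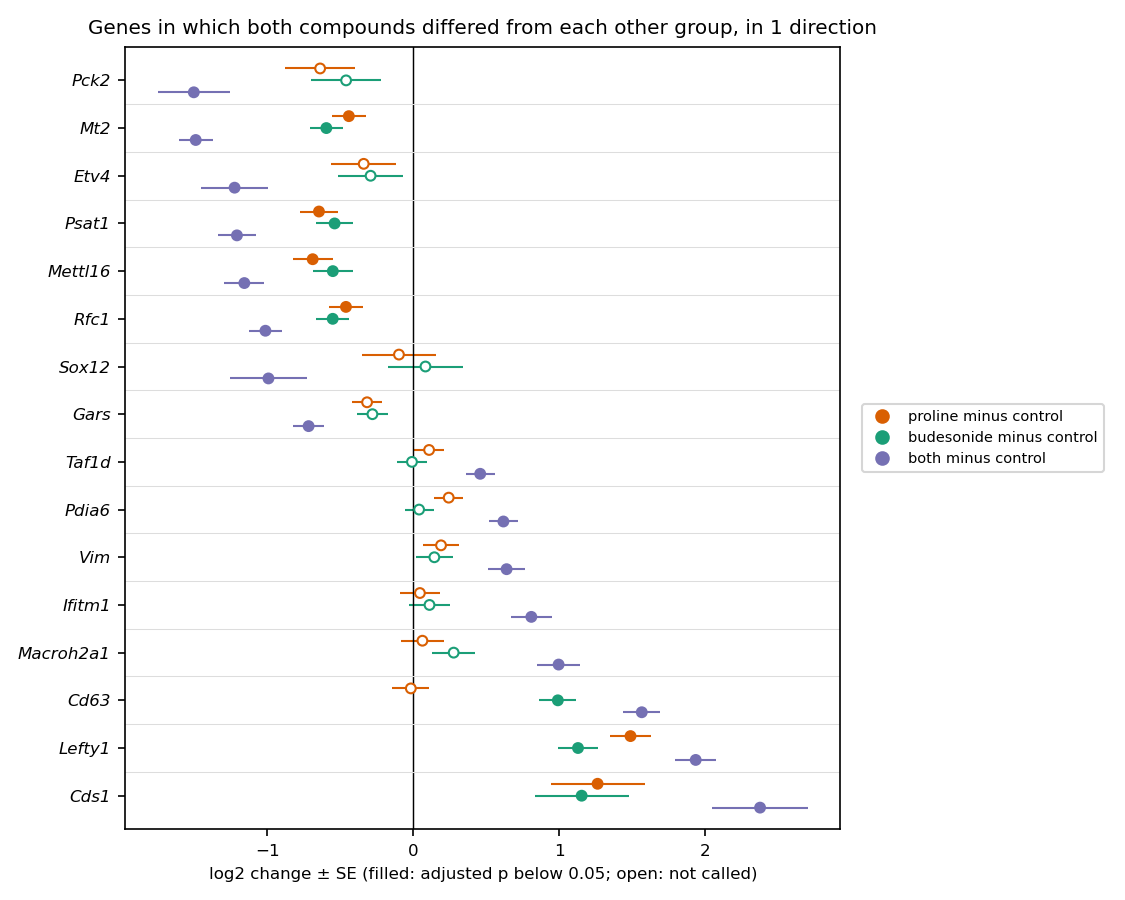
Change against control, log2 ± SE, of the 16 genes in which the combination differed in 1 direction from control, proline and budesonide, for each treatment; filled points have an adjusted p below 0.05. The combination point is the outermost of the 3 for each gene.

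Across all genes, the largest rises with non-overlapping samples and at least 5 CPM included genes of varied function. The basic helix-loop-helix repressor Bhlhe40 had 2.13, 0.964 and 1.39 CPM in control and 14.3, 18.1 and 18.7 CPM with the combination (3.49 ± 0.54, adjusted p = 0.000238), and both compounds alone had raised it (1.76 ± 0.53 and 2.47 ± 0.53). Camk2n1, an inhibitor of CaM kinase II, had 1.96, 5.2 and 2.78 CPM and 17.4, 30.6 and 19.6 CPM (2.77 ± 0.44, adjusted p = 0.000311), much as with budesonide (2.35 ± 0.44). Bach1, a repressor of haem and antioxidant genes, had 9, 2.31 and 4.47 CPM and 18, 29.5 and 36.3 CPM (2.39 ± 0.38, adjusted p = 0.000356), and was raised by each compound alone (1.53 ± 0.38 and 2.49 ± 0.38). The haem and antioxidant list that holds Bach1 had 5 of 21 genes higher and none lower (1 to 6 higher and 0 lower over the alternatives, with 3 without control 2, 2 without control 3 or sample 1 of the combination, and 1 without sample 2 of the combination). The neural factor Pax6 had 3.44, 3.66 and 5.86 CPM and 25.2, 27.6 and 13.6 CPM (2.35 ± 0.41, adjusted p = 0.000819), with neither compound alone called (1.18 ± 0.41 and 0.85 ± 0.41), and the proton pump subunit Atp6v0a4 rose by 2.40 ± 0.44 (adjusted p = 0.00122). Plekho1, Ftl1 and Gm16046 were also among the 12 largest rises, but 3 to 9 of the alternatives ended their calls (largest adjusted p 0.172, 0.0874 and 0.119), and Ftl1 has near-identical copies.

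Among the 12 largest falls, Spink1, a secreted trypsin inhibitor, had 180.2, 183 and 217 CPM in control, 80.4, 75.6 and 69.2 CPM with proline, 45.2, 69.1 and 93.5 CPM with budesonide and 48.6, 43.1 and 46.1 CPM with the combination. The combination samples and both single treatments lay below control, the combination at -2.07 ± 0.19 (adjusted p = 4.69e-07). The secreted glutathione peroxidase Gpx3 had 22.9, 32 and 28.4 CPM and 7.69, 6.87 and 5.47 CPM (-2.05 ± 0.31, adjusted p = 0.000214), and the cation exporter Slc47a1 had 19.5, 28.1 and 12 CPM and 4.92, 6 and 2.13 CPM (-2.19 ± 0.45, adjusted p = 0.00331). Thy1, a surface glycoprotein common on fibroblasts and neurons, went from 8.84, 6.75 and 8.79 CPM to 1.38, 1.17 and 1.07 CPM (-2.74 ± 0.61, adjusted p = 0.00648, range over alternatives 0.000256 to 0.0808, with 0.0808 in limma-voom). It is one of the feeder fibroblast markers whose summed level is given above. The falls also held Gm10800 and Gm10801, close copies of each other whose counts are uncertain, and the small nucleolar RNAs Snora15, Snora62 and Gm25517, which carry no poly(A) tail in their mature form. Of the alternatives, 3 ended the call of each of these small nucleolar RNAs (largest adjusted p 0.115, 0.0829 and 0.0833). Of 35 small nucleolar RNAs tested, 4 fell and none rose, beside 3.83% and 3.34% of all tested genes.

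Several of the genes with the largest proline effects were low in count. Besides Fgf5, the growth factor gene Fgf13 had 2 counts over the controls, 197 with proline and 35 with the combination, and the vascular receptor Flt1 had 5, 141 and 67. Neither was called against control with the combination (adjusted p = 0.2 for Fgf13 and 0.0858 for Flt1, the latter ranging over alternatives from 0.0243 to 0.281). In the neural list, Mapt, the microtubule protein tau, had 56.9, 50.9 and 58.6 CPM in control, 10.9, 8.73 and 9.73 CPM with proline and 14, 15.2 and 24.3 CPM with the combination. Mapt was still far below control (-1.63 ± 0.24, adjusted p = 0.000114) and slightly above proline (0.86 ± 0.24, adjusted p = 0.0232). Sox21, a neural repressor, rose from 7.35 ± 2.88 to 32 ± 2.21 CPM (2.12 ± 0.35, adjusted p = 0.000417), as with budesonide (1.75 ± 0.34).

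Imprinted genes gave 5 higher and 3 lower of 32, beside 3.34% and 3.83% of all tested genes. They were led by the long RNA H19, at 15.6, 20.8 and 11.9 CPM in control and 75, 51.2 and 60.02 CPM with the combination (1.95 ± 0.25, adjusted p = 2.71e-05; 1.87 ± 0.25 with budesonide). Of 20 interferon-related genes 4 rose and 1 fell, beside the same shares over all genes. Irf1, an interferon regulatory factor, had 30.6, 45.5 and 39.6 CPM in control, 146, 95.3 and 145 CPM with proline, 72, 73.6 and 79.9 CPM with budesonide and 99.2, 107 and 86.4 CPM with the combination (1.34 ± 0.18, adjusted p = 6.7e-05). B2m, the light chain of class I molecules, rose by 1.06 ± 0.24 (adjusted p = 0.00681). Of 22 S100, annexin and related genes, proline lowered 6 and the combination raised 2 and lowered 2. The galectin Lgals3 had 110.1, 133 and 122 CPM in control, 32.2, 31.1 and 38.4 CPM with proline and 222, 192 and 216 CPM with the combination, below control with proline and above it with the combination (0.78 ± 0.13, adjusted p = 0.00054).

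Mitochondrially encoded RNA, which proline had lowered to 5.62% of all counts, made up 7.58% ± 0.243 in control and 7.95% ± 0.0708 with the combination (SD, n = 3; exact permutation p = 0.1, the smallest that 3 against 3 allows). Of 27 p53 targets 3 fell, beside 3.83% of all tested genes. Among those 3 was Perp, an adhesion protein, which went from 49.7 ± 10.8 to 18.3 ± 0.51 CPM (-1.44 ± 0.28, adjusted p = 0.00193). In edgeR no gene was called among 15 streak and mesoderm genes (1 at an unadjusted p below 0.05), 8 genes of the 2-cell-like state (0) or 15 hedgehog genes (2), and the alternatives run on these lists called none. A further 12, 13 and 5 genes of these lists were not tested. Some uncalled streak genes had large fitted changes, such as 3.258 for Wnt3 and -1.895 for Sp8, so a lack of change is not shown.

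**Figure D5:**
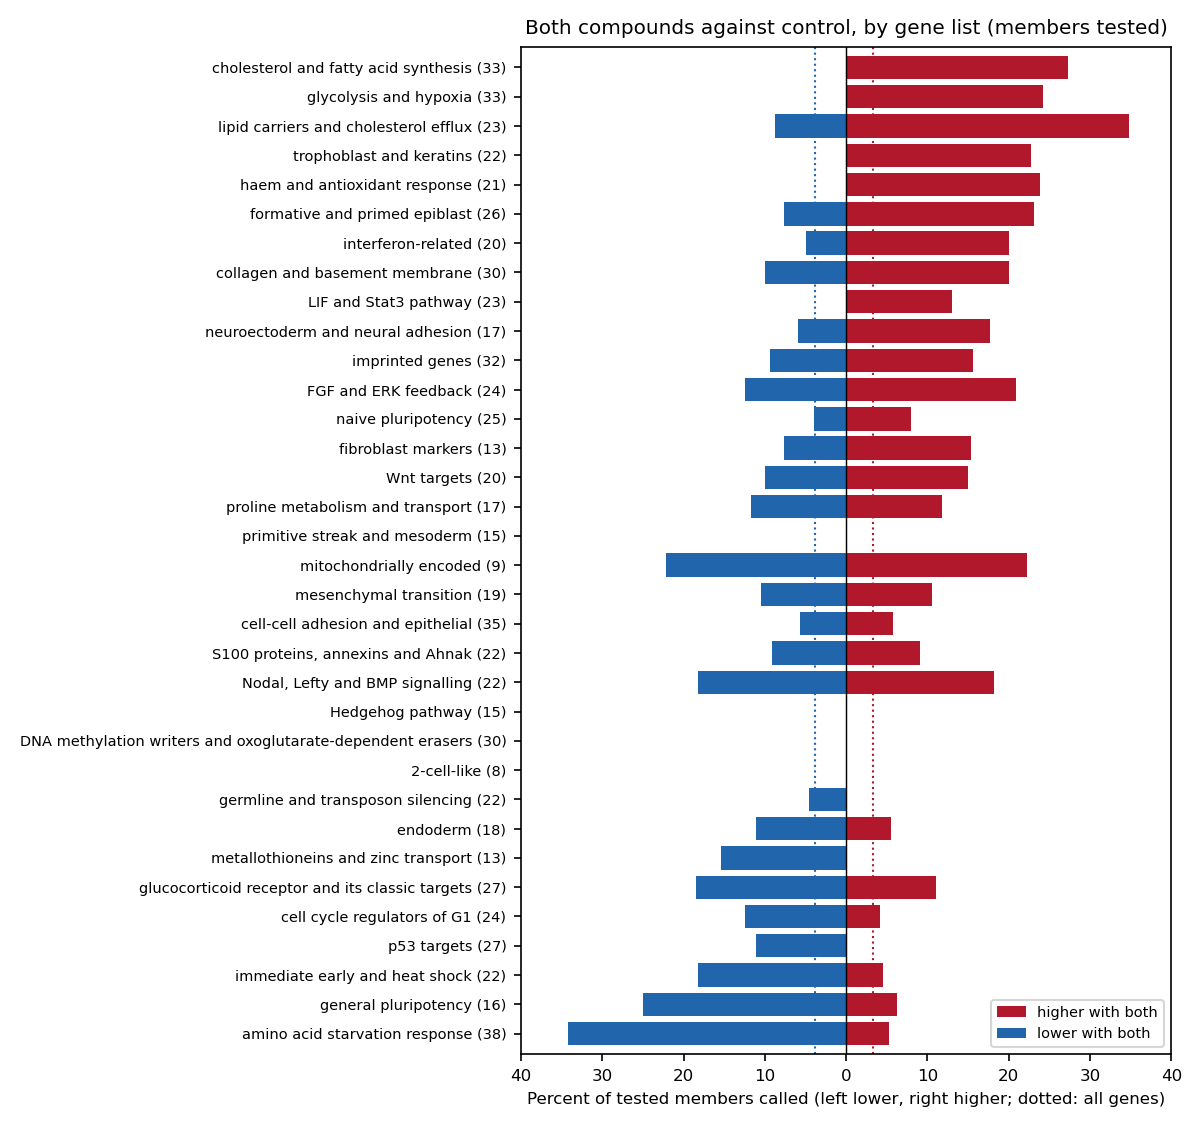
Share of tested members called lower (left) or higher (right) with the combination against control, in percent, for 34 gene lists with the number tested in brackets; dotted lines mark the shares over all tested genes, 3.83% lower and 3.34% higher. The amino acid response list has the largest lower share. The lipid lists, like most of the 34 lists, have shares above the line on the higher side.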

How the data were processed

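RNA from E14 mouse embryonic stem cells was measured with QuantSeq 3′ mRNA libraries in 12 samples, 4 groups of 3. The authors deposited 1 table of read counts per gene symbol for all samples, and those counts were used as deposited. Tools listed in the submitters' processing notes were STAR 2.7.5c, featureCounts 2.0, cutadapt 2.5, bcl2fastq and DESeq2, and the genome was GRCm39; the notes, as available here, give neither roles nor order. Which annotation was counted, whether by strand, and how reads matching several genes were handled is not given in the sources used here, so overlapping and antisense genes cannot be told apart. A second table of normalised values was not used here. No column belonged to another series (0).

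Of 53819 symbols, 25076 had a count and 13852 passed filterByExpr (10 counts at the median library size, 15 in total). Library totals ran from 5.30 to 15.92 M counts, with a median biological coefficient of variation of 0.293. A quasi-likelihood model in edgeR 4.0.16 (R 4.3.3, TMM, prior count 0.125) with 1 term per group was fitted to all 12 samples, with 8 residual degrees of freedom. The Benjamini-Hochberg adjustment ran over all tested genes. Standard errors are the log2 change divided by the square root of F. The steps were tested on simulated data. Alternatives used limma 3.58.1, DESeq2 1.42.0 and a correction for transcript length and GC content by mgcv 1.9.3 (97.7% of the tested genes had both values).

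The lists (34, of which 670 of 836 symbols were tested) and the members described were chosen with earlier results of these data known. The rule for named genes took the 12 largest rises and 12 largest falls with the combination (called, samples not overlapping, at least 5 CPM in the higher group), the 8 largest each way among genes beyond each compound and among proline effects, the 4 largest called changes of each list (or, with fewer than 2 called, its 2 most abundant members), and Pou5f1, Sox2, Nanog, Nr3c1, Fkbp5, Tsc22d3, Lefty1 and Lefty2. It named 150 genes, and 71 others were added with their values known. Some of these genes are not reported here. Promoter sequences are from RefSeq, build GRCm38.p6, matched by symbol. Same-numbered samples of control and the combination did not deviate together (correlations of 0.019, 0.017 and 0.053), so the numbers were not taken as pairs.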

Additional observations from a re-analysis of the deposited data

Results flagged for a closer look

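Budesonide acted differently in the presence of proline for 24 of the genes named above or listed here, by the interaction in edgeR's model over all 12 samples (adjusted p below 0.05). These 24 are out of 221 picked genes, many of them chosen for large changes, where 65 of all 13852 tested genes (0.469%) were called. A higher share among genes picked in this way is partly built in. Each value is the log2 effect of budesonide with proline minus its effect without proline, and no explanation was tested. Every such value rests on 3 samples a group, and the 2 effects use different reference samples.

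In the naive network the interaction was 1.97 for Tbx3, 1.71 for Tfcp2l1, 1.56 for Zfp42, 1.55 for Esrrb, 1.39 for Klf4, 1.34 for Mylpf, 1.01 for Nanog, 0.78 for Klf2 and 1.21 for Spp1. Esrrb shows the pattern plainly: budesonide gave -0.03 without proline and 1.52 with it. Tbx3 was raised in both settings, by 0.78 and 2.75.

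Genes of the formative and methylation lists had values below 0: -1.63 for Pou3f1, -1.37 for Pim2, -0.996 for Dnmt3a and -0.99 for Dnmt3b. Budesonide gave Pou3f1 a change of -0.12 alone and of -1.76 when proline was present.

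The other values were 1.254 for the ligand gene Bmp4, -1.36 for Irf1, 1.37 for the galectin Lgals3, 0.88 for Apoe, 0.80 and -0.92 for the transporters Slc2a3 and Slc16a3, and 1.66 for the basement membrane protein Nid1. The mitochondrially encoded mt-Cytb and mt-Nd2 gave 0.56 and 0.81. Gm10800, which has a close copy, gave 3.38. Gm13223 gave 8.64, but its proline libraries are all at 0, so that size depends on the prior count and is no bound.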

How the results depend on the processing

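Across the alternatives no called value of a named gene reversed its direction, although the fitted change of 12 of the uncalled genes took the other sign in at least 1: of 3399 values for 162 called genes, 3094 stayed called and 305 did not, and of 1223 values for 59 uncalled genes, 37 became called. With 1 library left out, the genes called numbered 535 to 1187 (251 to 581 higher, 284 to 606 lower), the proline genes back at control 112 to 240, those still changed 174 to 345, those changed the opposite way 14 to 33, the budesonide genes still changed 262 to 437, and the genes beyond each compound 6 to 25. The genes beyond each compound numbered 30 with no low-count filter, 36 in DESeq2, 27 in limma-voom and 8 with the replicate number as a block, against 16. The replicate block called 869 genes in all. Pairing by sample number was checked for control and the combination alone, where none was seen. DESeq2 gave 47 genes changed the opposite way and 646 budesonide genes still changed, with 1402 called in all and 3225 genes without an adjusted p. A test of 1.5-fold left 83 genes, and holding the interval within a ratio of 5 to 4 or within 2-fold gave 49 or 337 genes back at control. The causes of these moves were not tested beyond the fewer samples or the other bound that the settings themselves bring. At 5.30 to 7.52 M counts in these libraries, genes at a few CPM, such as Fgf5, Fgf13 and Tsc22d3, have intervals too wide to show a return to control.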
